A study of Mus musculus with 6 samples.

Results

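Untreated cancer-associated fibroblasts from a mouse pancreatic tumour were measured on 3 bead arrays, and these are described here alone. They are 3 of the 6 arrays of the series and were chosen by the label that gives no DAC as the agent. The other 3 arrays came from plates of the same culture that received 2 micromolar decitabine (DAC, which traps DNA methyltransferases) for 48 hours, and none of their values is used in what follows unless a normalization over 6 arrays is named. The culture was an explant kept for a short time, taken from 1 carcinoma of a KPC-Brca1 mouse. KPC is the field's name for mice in which a Cre recombinase made in pancreatic epithelium switches on tumour-driving mutations, mutant Trp53 among them, so fibroblasts are not the cells meant to recombine. The labels do not spell out the alleles this mouse carries. The 3 plates are replicates of 1 explant culture, so the SD given with each value covers plates of 1 culture, which may be technical, and not animals. No groups are compared, and the values are descriptions without a test across plates.

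Fibroblasts build the connective tissue around other cells. They secrete fibrillar collagens and the enzymes that fold and crosslink them, they pull on that matrix through actin bundles and integrins, and they signal to neighbours through growth factors and chemokines. In pancreatic carcinoma such cells make up much of the tumour mass. The field sorts them into contractile (myofibroblastic), inflammatory and antigen-presenting kinds, the last of which shares markers with mesothelium, the lining of the body cavities.

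Each array carried 45281 probes, read as the mean brightness of a median of 44 beads per probe. The deposited detection p-value sets a probe against the negative control probes of its own array. A probe counted as detected at a p under 0.01 on all 3 arrays and as at background at a p over 0.05 on all 3. By this rule 15868 probes were detected, 24750 were at background and 4663 lay in between. The 36674 probes that matched 1 current gene name covered 20632 genes. A gene counted as detected if any of its probes was, and as at background only if all of them were. This gave 9474 detected genes (45.9% of all genes), 9211 at background (44.6%) and 1947 in between (9.4%). Single arrays had 16254, 17180 and 17154 detected probes, and their values correlated at 0.996 to 0.997 over all probes. Levels are given as normalized intensity on the log2 scale, after background correction and an added offset of 16, for the brightest detected probe of a gene. On this scale the detected genes had a median of 8.26, with 25th and 75th percentiles of 6.78 and 9.76 and a 90th percentile of 11.04. Brightness depends on the probe as well as on the transcript, so the order of genes by brightness is an order of probes and not of transcript numbers.

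All 5 fibroblast markers were detected, against 45.9% of all genes. A count of 5 genes does not by itself establish the cell type, which was taken from the labels. Acta2, the smooth muscle actin of contractile fibroblasts, had 13.72, 13.86 and 13.90 on plates 1, 2 and 3. Col1a1, the main chain of type I collagen, had 13.66, 13.89 and 13.89. Thy1, a surface glycoprotein used to sort fibroblasts, had 12.79, 12.90 and 13.02. These probes lay above the 90th percentile of detected genes on every plate. In them plates 2 and 3 were slightly above plate 1, but the other detected probes of Acta2 had their lowest raw intensity on plate 3. Pdgfrb, the receptor through which platelet-derived growth factor drives mesenchymal cells, had 9.59, 9.76 and 9.61. Col1a2, the partner chain of Col1a1, had only 7.55, 7.54 and 7.38, in the lower part of the detected range although both chains build the same collagen molecule. Its raw intensities were 211.7, 203.7 and 188.1, against 13299, 14971 and 15022 for Col1a1. Not every probe of the markers was detected. Acta2 was detected by 4 of its 5 probes, and Col1a1 and Thy1 by 1 of 2 probes each, so 2 of the 5 markers had all probes detected. Over the whole array, 3636 of the 9466 genes with more than 1 probe (38.4%) had detected and undetected probes side by side.

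**Figure D1:**
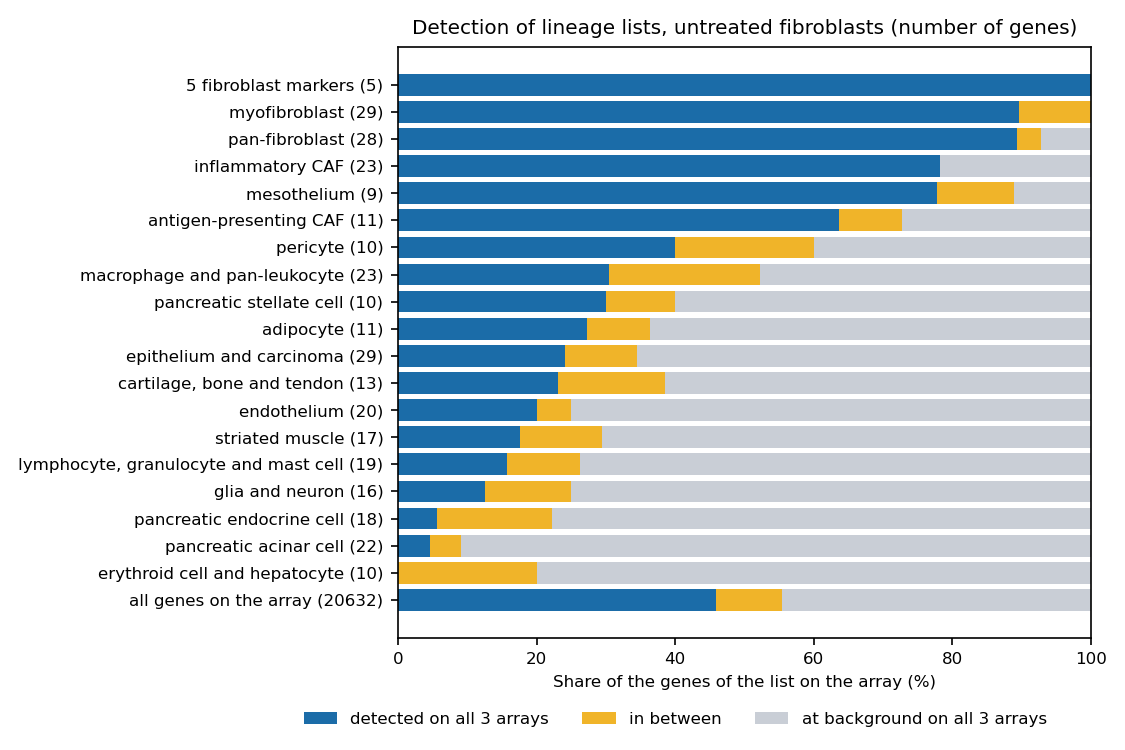
Share of the genes of each lineage list (number of genes on the array in brackets) that were detected on all 3 untreated arrays (blue), in between (yellow) or at background (grey), in percent. The fibroblast lists run up to 100%, mesothelium reaches 77.8%, the lists of other lineages lie between 0% and 40.0%, and all genes stand at 45.9% in the bottom bar.

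Genes of protein synthesis, matrix and contraction made up most of the 30 brightest. When the detected probes of a gene were averaged in place of taking the brightest, 17 of the 30 stayed among the brightest 30, so membership depends on that choice. The 30 brightest genes with a current symbol had mean levels of 13.78 to 14.04, and 6 genes with clone or predicted names were passed over among them. The group held 11 ribosomal protein genes, 7 members of the matrix lists and 4 members of the myofibroblast list, with Ccn2 in both of the last. Tuba1b, an alpha-tubulin of microtubules, had 14.06, 13.93 and 14.14. Serpinh1, the chaperone that folds procollagen in the endoplasmic reticulum, had 13.99, 13.94 and 13.94. Ccn2, a matrix-bound growth factor switched on by TGF-beta and by tension, had 14.01, 13.79 and 13.85. Sparc, a collagen-binding glycoprotein, gave 13.85, 13.86 and 13.85, the same value on the 3 plates within 0.01. Beside Col1a1, the other matrix members were Serpinf1 (13.82 ± 0.03, SD, n = 3), an inhibitor of vessel growth, the elastic fibre protein Fbln2 (13.80 ± 0.05) and the small proteoglycan Bgn (13.78 ± 0.11). Contraction was represented, beside Acta2, by Tpm1, a tropomyosin that lies along actin filaments (13.81 ± 0.09), and Zyx, a focal adhesion protein (13.79 ± 0.11). The remaining 9 were Tuba1b, the myosin light chain Myl6, the metal-binding Mt1, the ferritin chain Fth1, the elongation factor subunits Eef1a1 and Eef1g, ubiquitin (Ubb), the lectin Lgals1 and the ATP synthase subunit Atp5b. The widest gap between neighbours in the order was 0.06, and the SDs between plates ran from 0.01 to 0.15, so the order within the 30 is not resolved by these plates.

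The windows around the start sites of 5 genes show the range of CpG density among them, taken as 250 bases before and 50 after the annotated start. They are RefSeq sequences of GRCm38.p6, written 5′ to 3′ on the gene's strand, with every CpG, the dinucleotide that DNA methyltransferases act on, in capitals. Tuba1b (chr15:98934341-98934640, minus strand) and Serpinh1 (chr7:99353190-99353489, minus strand) are shown as bright genes whose windows hold more CpGs than the median of all windows. Acta2 (chr19:34255324-34255623, minus strand) and Upk3b (chr5:136038246-136038545, plus strand) are bright genes with few CpGs, and Cpa1 (chr6:30638968-30639267, plus strand), a digestive enzyme of the pancreas, was at background.
Tuba1b: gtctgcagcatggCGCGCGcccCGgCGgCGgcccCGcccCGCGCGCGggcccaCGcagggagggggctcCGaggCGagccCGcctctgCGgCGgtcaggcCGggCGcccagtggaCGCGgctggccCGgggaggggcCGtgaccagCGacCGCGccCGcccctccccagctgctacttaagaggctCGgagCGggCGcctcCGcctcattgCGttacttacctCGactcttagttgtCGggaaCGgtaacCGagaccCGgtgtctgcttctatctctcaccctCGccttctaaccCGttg
Serpinh1: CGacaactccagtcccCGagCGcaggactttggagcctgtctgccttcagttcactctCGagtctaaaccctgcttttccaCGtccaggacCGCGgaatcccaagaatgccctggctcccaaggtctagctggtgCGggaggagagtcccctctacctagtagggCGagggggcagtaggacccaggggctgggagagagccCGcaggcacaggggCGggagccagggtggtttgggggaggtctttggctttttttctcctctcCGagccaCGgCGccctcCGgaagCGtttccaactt
Acta2: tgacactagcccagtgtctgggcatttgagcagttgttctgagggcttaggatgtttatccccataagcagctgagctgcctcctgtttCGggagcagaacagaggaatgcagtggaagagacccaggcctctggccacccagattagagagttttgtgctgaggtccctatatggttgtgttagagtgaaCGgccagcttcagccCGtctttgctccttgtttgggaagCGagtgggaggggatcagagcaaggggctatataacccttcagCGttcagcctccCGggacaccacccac
Upk3b: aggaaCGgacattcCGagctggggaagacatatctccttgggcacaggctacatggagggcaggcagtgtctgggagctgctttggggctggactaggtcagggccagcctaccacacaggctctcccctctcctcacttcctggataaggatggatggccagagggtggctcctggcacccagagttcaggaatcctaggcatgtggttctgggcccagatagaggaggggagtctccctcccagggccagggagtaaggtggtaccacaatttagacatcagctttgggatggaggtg
Cpa1: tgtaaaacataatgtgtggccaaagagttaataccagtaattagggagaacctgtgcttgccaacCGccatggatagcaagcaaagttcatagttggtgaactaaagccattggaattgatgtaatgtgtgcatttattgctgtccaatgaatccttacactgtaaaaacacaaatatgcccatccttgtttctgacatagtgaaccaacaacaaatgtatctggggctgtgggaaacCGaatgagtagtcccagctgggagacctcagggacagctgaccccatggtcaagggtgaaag
The windows hold 39 CpGs for Tuba1b, 16 for Serpinh1, 6 for Acta2 and 2 each for Upk3b and Cpa1. The ratio of observed to expected CpGs (the CpG count times the length, divided by the product of the C and G counts) was 0.99 for Tuba1b, 0.55 for Serpinh1, 0.27 for Acta2, 0.08 for Upk3b and 0.14 for Cpa1. The bright genes were picked to show windows both above and below the median of all windows, which is 7 CpGs. The median for windows of detected genes is 21, above the 16 of Serpinh1.

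Lists of fibroblast genes were detected almost throughout. Of 28 pan-fibroblast genes on the array, 25 were detected (89.3%, against 45.9% of all genes), with a median level of 11.88 against 8.26. Fn1, the fibronectin that links collagen to integrins, was detected by all 4 of its probes, the brightest at 13.42, 13.34 and 13.49. The other Fn1 probes averaged 9.52, 7.79 and 6.67. Vim, the intermediate filament of mesenchymal cells, had 13.45, 13.43 and 13.33. Pdpn, a surface mucin of stromal cells, had 12.73, 12.69 and 12.62, and Dcn, a proteoglycan that coats collagen fibrils, 12.69, 12.68 and 12.64. Pdgfra, the receptor that marks most tissue fibroblasts, had 10.29, 10.10 and 10.05. For each of these genes, the plate values given differed by less than 0.25. S100a4, a calcium-binding protein often used as a fibroblast marker, lay lower in the detected range at 7.05, 7.36 and 6.90. Postn, which encodes periostin, and Pi16 were at background. Fap, the protease that gave activated fibroblasts a common marker name, was in between: its brighter probe had raw intensities of 58.0, 58.8 and 47.6, when the lowest detected probe of the 3 arrays had 58.3, 50.9 and 51.2.

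Contractile genes were as widely detected as the general ones. Of 29 myofibroblast genes, 26 were detected (89.7%, against 45.9% of all genes), with a median level of 11.81, and none was at background. Mylk, the kinase that switches on smooth muscle myosin, had 12.82, 12.75 and 12.87 with all 3 probes detected. Myl9, its light chain substrate, had 12.60, 12.70 and 12.75. Tpm2, a tropomyosin, had 12.24, 12.34 and 12.36, and Tagln, an actin-bundling protein of smooth muscle, 11.02, 11.19 and 11.32. Plate 3 was the highest of the 3 plates in these 4 genes, by at most 0.30 over plate 1, but not in the list as a whole. The summed intensity of the detected members was 136398, 130495 and 136268 on plates 1, 2 and 3. Actg2, the smooth muscle gamma-actin, had 12.17 ± 0.07 (SD, n = 3). Probes of one actin can read another, so its signal and that of Acta2 are not certain to be separate. Myh11, the smooth muscle myosin heavy chain, was detected by 1 of 2 probes at 9.17 ± 0.09. Cnn1, Lrrc15 and Hopx were in between.

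Inflammatory fibroblast genes were mostly detected, with a low median level. Of the detected members, 2 lay above the 75th percentile of detected genes, Cxcl12 and Ccl7. Of 23 genes of this list, 18 were detected (78.3%, against 45.9% of all genes), with a median level of 7.56, below the 8.26 of all detected genes. Cxcl12, the chemokine that holds CXCR4-bearing cells in the stroma, had 12.89, 12.69 and 12.74. Ccl7, a monocyte attractant, had 10.28, 10.66 and 10.25, and Cxcl1, a neutrophil attractant, averaged 8.93 ± 0.06 (SD, n = 3). Il6, the cytokine that defines this kind of fibroblast, was at background on its single probe (raw 43.0, 44.5 and 43.9). Cxcl2, Ptgs2, which makes prostaglandins, the complement protease Cfd and Pi16 were at background as well. Of 11 genes of antigen-presenting fibroblasts, 7 were detected (63.6%). H2-Ab1, a chain of MHC class II, had 6.53, 6.60 and 6.53 and H2-DMa, which loads peptides onto it, 6.41, 6.56 and 6.48. Both were low in the detected range on every plate, whereas H2-Aa, H2-Eb1 and Ciita, the master activator of class II genes, were at background and Cd74 was in between. The other detected members of that list were Upk3b, Msln and Lrrn4, which are mesothelial genes, and Slpi and Saa3.

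**Figure D2:**
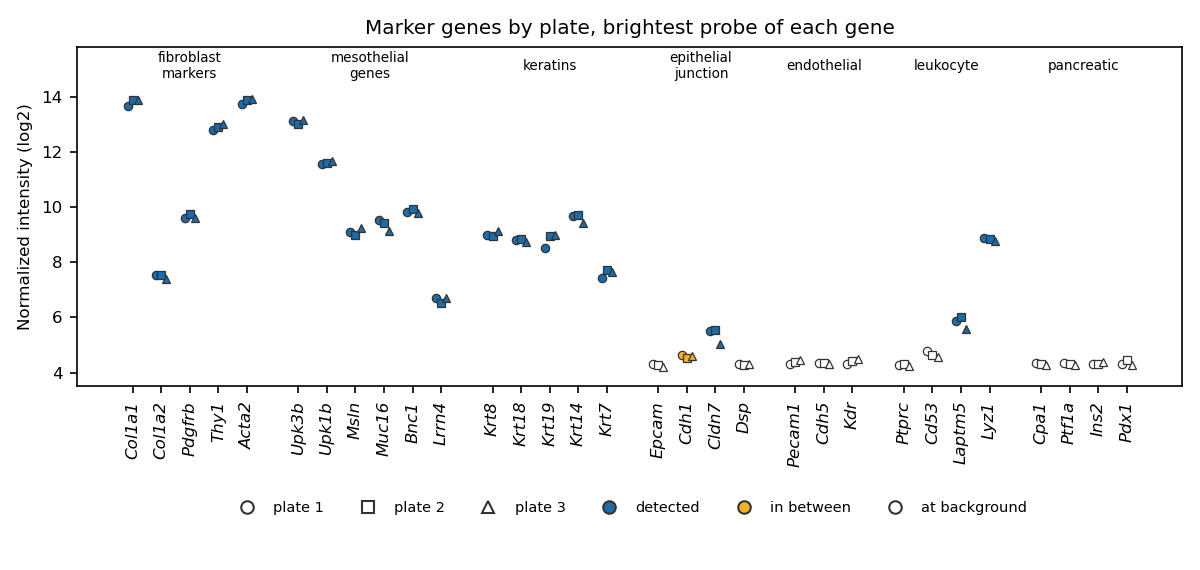
Normalized intensity (log2) of marker genes on plates 1 (circles), 2 (squares) and 3 (triangles), brightest probe of each gene; blue is detected, yellow in between and white at background. Fibroblast, mesothelial and keratin genes stand above Epcam, Dsp, Pecam1, Cdh5, Kdr, Ptprc, Cd53, Cpa1, Ptf1a, Ins2 and Pdx1, which lie at the floor on every plate.

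Genes of mesothelium were detected together with the fibroblast genes. Of 9 mesothelial genes on the array, 7 were detected (77.8%, against 45.9% of all genes), with a median level of 9.37. Upk3b, a uroplakin of mesothelium and bladder lining, was detected by all 3 of its probes. The brightest had 13.10, 13.01 and 13.17, and the others averaged 12.61 and 11.67. Upk1b, a tetraspanin partner of the uroplakins, had 11.55, 11.61 and 11.66. These were the 2 uroplakins detected of 6 on the array, and the bladder uroplakins Upk2 and Upk3a were at background. Bnc1, a zinc finger factor of mesothelium and stratified epithelium, had 9.80, 9.92 and 9.79. Muc16, the membrane mucin known as CA125, had 9.53, 9.44 and 9.13, and Msln, mesothelin, which binds it, averaged 9.12 ± 0.12 (SD, n = 3). The surface proteins Lrrn4 (6.64 ± 0.10) and Gpm6a (5.72 ± 0.27) were detected at low levels, Nkain4 was in between, and Calb2, the calretinin of mesothelial cells, was at background on both probes. The summed normalized intensity of the detected members was 14013, 13600 and 14500 on plates 1, 2 and 3. The corresponding sums of the 5 fibroblast markers were 34435, 38676 and 39621. In RNA from a whole plate, expression in some of the cells and expression in all of them cannot be told apart. The source of the mesothelial transcripts was not tested.

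Some keratins were detected, without most other keratins and most other epithelial genes. Of 29 genes of epithelium and carcinoma, 7 were detected (24.1%, against 45.9% of all genes), 19 were at background (65.5%) and 3 were in between. Krt8 and Krt18, the pair that builds the filaments of simple epithelia, averaged 9.03 ± 0.08 and 8.80 ± 0.05 (SD, n = 3). Krt19, a keratin of ducts, averaged 8.82 ± 0.26 with plate 1 at 8.52, and Krt7, found in ducts and mesothelium, had 7.42, 7.73 and 7.64. Krt14, a keratin of basal cells, had 9.66, 9.70 and 9.42. Krt19 and Krt7 were lowest on plate 1 and Krt14 on plate 3, and the plates differed by at most 0.48 in these keratins, for Krt19. The family as a whole had 6 of 53 genes detected (11.3%), the sixth being Krt10 at 7.34 ± 0.14. Another 40 were at background (75.5%), Krt5 and Krt17 among them. Epcam, the adhesion molecule of carcinoma cells, was at background with raw intensities of 37.7, 35.2 and 31.7. Cdh1, E-cadherin, was in between: 1 of its probes was at background, and the other had raw intensities of 49.2, 47.1 and 39.5, with a detection p of 0.03953 on plate 2. The junction proteins Dsp, Cldn3, Cldn4 and Ocln, the secretory genes Agr2, Tff2 and Muc5ac and the epithelial regulators Esrp1, Grhl2, Elf3 and Cdx2 were at background. Cldn7 (5.36 ± 0.29) and the protease inhibitor Spint1 (5.26 ± 0.08) were detected near the low end of the range. The summed intensity of the 7 detected members was 2278, 2474 and 2340 on plates 1 to 3, and the source of the keratin transcripts was not tested.

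Most genes of the other lineages were at background. Outside the stromal and mesothelial lists, 33 of 194 lineage genes were detected (17.0%, against 45.9% of all genes) and 137 were at background (70.6%, against 44.6%). Of 22 acinar genes, 1 was detected, the elastase Cela1 at 6.60 ± 0.09 (SD, n = 3), by 1 of 2 probes. Cpa1, with raw intensities of 39.7, 37.0 and 34.5, and the acinar regulators Ptf1a and Rbpjl were at background. Of 18 endocrine genes, 1 was detected, the LIM homeobox factor Isl1, at 9.04, 9.05 and 8.90. Isl1 is also known from the embryonic mesenchyme next to the pancreas. The islet hormones Ins2, Gcg and Sst were at background. Of 20 endothelial genes, 4 were detected: Esam, Egfl7, Flt1 and Flt4, at 8.80 ± 0.24, 7.46 ± 0.12, 7.25 ± 0.10 and 5.73 ± 0.42, whereas Pecam1, Cdh5, Kdr and Vwf were at background. Of 23 macrophage and leukocyte genes, 11 were at background (47.8%, against 44.6% of all genes). Another 5 were in between, C1qa, C1qb and C1qc among them, and 7 were detected (30.4%). The lysozyme genes Lyz1 (8.83 ± 0.05) and Lyz2 (7.43 ± 0.17) and the lipopolysaccharide receptor Cd14 (7.24 ± 0.09) were the brightest, Cd68, Laptm5, Coro1a and Fcgr3 lay between 5.36 and 5.91, and Ptprc, the CD45 of all leukocytes, was at background on its 3 probes with Adgre1, Itgam and Spi1. The near-identical lysozyme genes can share a probe's signal. Summed over plates 1, 2 and 3, the detected members of the leukocyte list gave 864, 899 and 844 and those of the endothelial list 792, 833 and 683, and their part in the culture's profile was not tested. None of 10 erythroid and hepatocyte genes was detected.

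Genes of cells related to the fibroblast were detected at shares near or below the 45.9% of all genes. Of 10 pericyte genes, 4 were detected (40.0%): Mcam, the adhesion molecule CD146, at 8.98, 9.06 and 9.15, and Anpep, Cspg4 and Notch3 at means of 6.05, 5.89 and 5.77. Rgs5, Abcc9 and Higd1b, which mark pericytes most narrowly, were at background. Of 10 genes of pancreatic stellate cells, the fat-storing fibroblasts of the organ, 3 were detected. Among them were the filament proteins Des (9.35, 9.19 and 9.28) and Nes (8.94, 9.14 and 9.08). The retinol esterase Lrat and Gfap were at background. Of 11 fat cell genes, 3 were detected (27.3%), among them Lpl, the lipoprotein lipase, at 11.69, 11.54 and 11.47 and Pparg, the nuclear receptor of fat cell formation, at 9.05, 8.85 and 8.84. Adipoq, Plin1 and Lep were at background. Of 13 genes of cartilage, bone and tendon, 3 were detected (23.1%) and 8 were at background (61.5%). Among the detected was Sox9, the regulator of cartilage and of pancreatic ducts, by 1 of 2 probes at 8.78, 8.78 and 8.80.

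Regulators of mesenchyme were widely detected. Of 47 mesenchymal transcription factors on the array, 33 were detected (70.2%, against 45.9% of all genes), 8 were at background and 6 in between. Tcf4 (11.65 ± 0.10, SD, n = 3), a helix-loop-helix factor, and Tead1 (11.53 ± 0.13), the DNA-binding partner of Yap1, were the brightest probes. Gata6, a zinc finger factor of gut mesoderm and endoderm, had 11.30, 11.11 and 11.18. Prrx1, a homeobox factor of fibroblasts, was detected by 5 of 6 probes, the brightest at 10.19, 10.30 and 10.31. The repressors of E-cadherin were all detected, with Zeb1 at 10.29 ± 0.08, Snai2 at 9.48 ± 0.11, Twist2 at 9.07 ± 0.08, Twist1 at 8.86 ± 0.05, Snai1 at 8.79 ± 0.07 and Zeb2 at 8.75 ± 0.14. Among regulators of organ mesenchyme, Barx1, known from the embryonic stomach, had 9.45, 9.55 and 9.63, and Osr1, known from the intermediate mesoderm, 9.89, 9.67 and 9.77. Nkx3-2, known from the mesoderm of spleen and pancreas, was detected at only 5.28, 5.36 and 5.51. Tcf21, Tbx5, Tbx18, Foxf2, Meox1, Meox2 and Tlx1, a factor of the spleen, were at background. In the Hedgehog pathway, which carcinoma cells use to signal to stroma, Gli3 (10.00 ± 0.03) and Gli2 (8.36 ± 0.13) were detected, and Gli1, the pathway's most direct target, was at background. Hedgehog ligands Shh and Ihh were at background, the signal transducer Smo had 9.65, 9.33 and 9.57, and the receptor Ptch1, also a target, had 5.71, 5.82 and 5.95.

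Hox genes, whose combination records the position of mesenchyme along the body axis, were detected in part. Of 39 Hox genes, 12 were detected (30.8%, against 45.9% of all genes), 16 were at background and 11 were in between. Hoxa5 had 10.87, 10.77 and 10.92. Hoxb7 had 10.37, 10.42 and 10.12, and Hoxb5 9.84, 9.83 and 9.65. The Hoxb cluster was detected without a gap from Hoxb2 to Hoxb7, with Hoxb2 at 9.09 ± 0.11 (SD, n = 3), Hoxb6 at 8.59 ± 0.20, Hoxb4 at 8.07 ± 0.26 and Hoxb3 at 6.48 ± 0.04. In the Hoxa cluster, Hoxa2 (8.65 ± 0.16), Hoxa4 (8.36 ± 0.27), Hoxa5 and Hoxa7 (7.47 ± 0.20) were detected, Hoxa3 was in between and Hoxa6 was at background. In the Hoxc cluster, Hoxc6 (8.10 ± 0.08) and Hoxc9 (5.35 ± 0.03) were detected, with Hoxc8 between them in the cluster at background. No Hoxd gene was detected, and none of the genes numbered 10 to 13 in any cluster was.

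**Figure D3:**
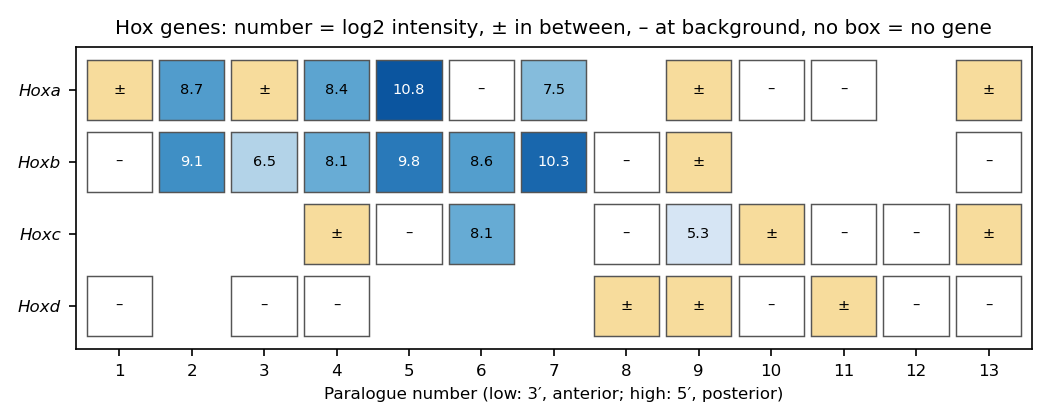
The 39 Hox genes by cluster (rows) and paralogue number (columns); a number is the mean normalized intensity (log2) over 3 plates of a detected gene, ± a gene in between and a dash a gene at background. Detected genes fill Hoxb2 to Hoxb7 and parts of Hoxa and Hoxc, and the Hoxd row holds none.

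Matrix genes were detected more often than genes at large. Of 220 distinct matrix genes, 145 were detected (65.9%, against 45.9% of all genes), with a median level of 9.91 against 8.26, and 51 lay above the 90th percentile. Collagens came first in the list. Of 11 fibrillar collagen genes, 8 were detected and none was at background, and the 3 in between were Col2a1, Col11a2 and Col27a1. Col5a1, a chain of the collagen that seeds type I fibrils, had 13.31, 12.98 and 13.16. Col5a2, its partner, had 8.80, 8.73 and 8.56, with 3 of 5 probes detected. Col3a1, the collagen of reticular fibres, was detected by both probes, the brighter at 8.43, 8.48 and 8.16. The other Col3a1 probe averaged 6.95. As with Col1a1 and Col1a2, the chains of 1 molecule thus gave very different brightness on these probes.

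Of 33 other collagen genes, 17 were detected (51.5%, against 45.9% of all genes). Type IV collagen, the sheet of basement membranes, was bright through Col4a1 (13.56, 13.48 and 13.62) and Col4a2 (12.67, 12.79 and 12.79). Col4a5 averaged 10.48 ± 0.14 (SD, n = 3), Col4a6 had 7.94, 7.94 and 8.13, and Col4a3 and Col4a4, chains of kidney and lung membranes, were at background. All 3 chains of the usual type VI collagen, which forms beaded filaments around cells, were detected: Col6a3 at 12.86 ± 0.17, Col6a1 at 12.27 ± 0.07 and Col6a2 at 9.48 ± 0.21. The alternative chains Col6a4, Col6a5 and Col6a6 were at background. Col12a1, which bridges fibrils, had 11.64, 11.52 and 11.52. Col15a1, a basement membrane collagen, spread more between the plates, with 6.71, 7.16 and 7.39. Col10a1 of growth-plate cartilage and Col17a1 of epithelial attachment were at background. Among laminins, the other component of basement membranes, 6 of 11 were detected (54.5%). Lamc1 had 10.98 ± 0.10, Lamb2 9.97 ± 0.09 and Lama1 9.14 ± 0.03. Lama5 had 8.93, 9.02 and 9.06, and Lama3 and Lamb3 were at background. The linkers Nid1 (11.14 ± 0.03) and Nid2 (9.15 ± 0.07) and the proteoglycan perlecan, Hspg2 (11.81 ± 0.05), were also detected.

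Collagen processing was the matrix group detected most completely. Of 23 genes of assembly and crosslinking, 20 were detected (87.0%, against 45.9% of all genes), with a median level of 11.18, and 13 lay above the 90th percentile. Lox, the oxidase that starts collagen crosslinks, had 13.51, 13.40 and 13.60, and its relative Loxl1 13.08, 12.98 and 12.89. P4hb, a subunit of prolyl hydroxylase, had 13.75, 13.56 and 13.70. Adamts2, which cuts the procollagen end, had 13.06, 12.79 and 12.90, and Bmp1, which cuts the other end, 11.25, 11.07 and 11.07. The lysyl hydroxylases Plod3, Plod2 and Plod1 had 12.10 ± 0.10, 11.23 ± 0.21 and 8.08 ± 0.11 (SD, n = 3). Loxl2, Loxl3 and Adamts14 were at background.

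Glycoproteins and proteoglycans are given next. Of 49 glycoprotein genes, 33 were detected (67.3%, against 45.9% of all genes), with a median level of 10.98. Thbs2 and Thbs1, thrombospondins that bind TGF-beta and integrins, had 12.75 ± 0.06 and 12.06 ± 0.22 (SD, n = 3). Fbn1, the fibrillin of microfibrils, had 11.55, 11.57 and 11.55, and Tnc, a tenascin of wounds and tumour stroma, 11.41, 11.44 and 11.26 with 5 of 6 probes detected. Eln, the elastin of elastic fibres, was at background, as were Fbln5, the other fibrillin gene Fbn2 and Ltbp2. Of 31 proteoglycan and hyaluronan genes, 20 were detected (64.5%), among them Lum at 9.98, 9.76 and 9.98. Hyaluronan synthases Has2 and Has1 had 8.25 ± 0.09 and 7.25 ± 0.11. Vcan, the large proteoglycan that binds hyaluronan, had 7.27, 7.16 and 7.25, and Aspn was at background.

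Proteases and their inhibitors were detected side by side. Of 43 protease genes, 30 were detected (69.8%, against 45.9% of all genes), with a median level of 8.29. Mmp14, the membrane-bound collagenase, had 12.94, 12.69 and 12.86, and Mmp2, the gelatinase it activates, 12.47, 12.30 and 12.42. Timp2, an inhibitor that also helps Mmp14 activate Mmp2, had 13.39, 13.30 and 13.46. Timp3 and Timp1 had 13.22 ± 0.07 and 13.04 ± 0.12 (SD, n = 3), and Timp4 was at background. The stromelysin Mmp3 and the collagenase Mmp13 had 8.23 ± 0.09 and 8.04 ± 0.15. Mmp9 was in between, and Mmp7 of epithelium, Mmp8 of neutrophils and Mmp12 of macrophages were at background. Of the plasminogen system, Plat had 10.06, 10.32 and 10.35 and Plau 6.47, 6.90 and 6.65.

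Secreted signals were detected at a share close to that of genes at large. Of 229 distinct secreted genes, 103 were detected, against 45.9% of all genes, with a median level of 8.06 against 8.26. The share differed by kind of signal. Growth factors were detected in 32 of 43 genes (74.4%) and IGF binding proteins in 6 of 7. Cytokines were detected in 12 of 39 (30.8%), chemokines in 11 of 32 (34.4%), Wnt and Hedgehog genes in 8 of 35 (22.9%) and complement and acute phase genes in 8 of 27 (29.6%). Among growth factors, Ptn, a heparin-binding cytokine, had 13.15, 13.24 and 13.27. Vegfd, a ligand for lymphatic vessels, had 11.24, 11.28 and 11.38, and Pdgfa, a ligand of Pdgfra, 11.22, 11.18 and 11.15. Fgf7 and Fgf10, which act from mesenchyme on epithelium, had 10.49, 10.34 and 10.49 and 10.09, 10.18 and 9.96. Gas6, the ligand of the receptor kinase Axl, had 10.81, 10.96 and 10.99. These 6 genes varied between plates by 0.22 at most. Hgf, which acts on Met in epithelium, was detected low at 5.99, 6.16 and 6.13, and Tgfa, Areg and Ereg, ligands of Egfr, were at background.

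Among TGF-beta and BMP ligands and antagonists, 16 of 31 genes were detected (51.6%, against 45.9% of all genes). Inhba, the activin A chain, had 11.39, 11.28 and 11.35, and Bmp4 10.37, 10.52 and 10.70. Grem1, an antagonist of Bmp4, had 11.04, 11.08 and 10.89, so ligand and antagonist were detected together on each plate. Tgfb3 and Tgfb1 had 9.46 ± 0.07 and 8.62 ± 0.15 (SD, n = 3), and Tgfb2 6.00 ± 0.15. Of Wnt genes, Wnt5a was detected at 9.70, 9.65 and 9.68 and Wnt4 at 6.12 ± 0.19, and the antagonist Sfrp1 had 10.62, 10.65 and 10.73. Canonical ligands Wnt1, Wnt3, Wnt3a and Wnt7a were at background. Among cytokines, Mif was detected at 13.72, 13.80 and 13.69 and Csf1, the macrophage growth factor, at 10.37, 10.11 and 9.86. Il33, an alarmin stored in nuclei, had 8.21, 8.21 and 8.11. Il1a, Il1b, Tnf, Csf2, Ifnb1 and Ifng were at background. Of chemokines other than Cxcl12, Ccl7 and Cxcl1, Cxcl16, Ccl27a and Cx3cl1 were detected at means of 7.93, 7.74 and 7.19, and Cxcl10 had 5.90, 6.00 and 5.76. Cxcl9, Cxcl11, Cxcl13 and Ccl19 were at background, and Ccl5 was in between. Of guidance cues, Slit2 was detected by 5 of 7 probes, the brightest at 10.97, 10.73 and 10.86.

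**Figure D4:**
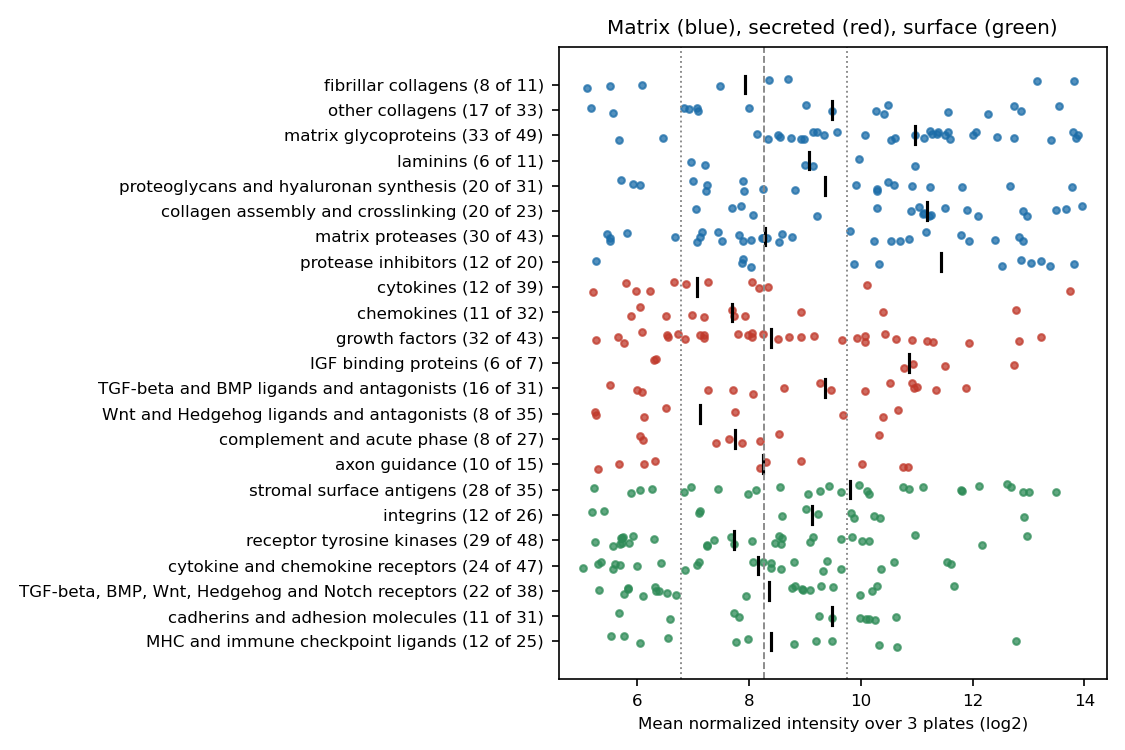
Mean normalized intensity (log2) over 3 plates of the detected genes of each list, 1 point per gene, with the list's median as a black bar and its count detected of those on the array in brackets; vertical lines mark the 25th, 50th and 75th percentiles of all detected genes (6.78, 8.26 and 9.76). Medians of collagen assembly (11.18), protease inhibitors (11.43) and glycoproteins (10.98) lie right of the last line, and those of cytokines (7.07) and Wnt and Hedgehog genes (7.13) left of the middle line.

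Surface genes were detected in 135 of 247 distinct cases (54.7%, against 45.9% of all genes), with a median level of 8.57 against 8.26. Of 35 stromal surface antigens, 28 were detected (80.0%). The tetraspanins Cd63 (13.50 ± 0.19, SD, n = 3), Cd81 (13.01 ± 0.11) and Cd151 (12.61 ± 0.03) were bright. Cd248, endosialin of tumour stroma, had 12.22, 12.05 and 12.05. Ly6a, the Sca-1 antigen of mouse mesenchymal progenitors, had 11.72, 11.90 and 11.81, and Vcam1, an adhesion molecule for leukocytes, 11.87, 11.78 and 11.73. Plates lay within 0.18 of each other in these 3 genes. Cd34 averaged 6.97 ± 0.16 and Dpp4 had 7.31, 7.46 and 7.54, both low in the detected range. Anpep, an aminopeptidase, differed more between plates, with 5.50, 6.01 and 6.63. Mme, Ngfr, Cd200 and Lepr, a marker of marrow stroma, were at background.

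Of 26 integrins, 12 were detected (46.2%), close to the 45.9% of all genes. Itga11, the collagen receptor of fibroblasts, was detected by all 3 probes, the brightest at 13.10, 12.84 and 12.84. Its beta partner Itgb1 had 9.82, 9.86 and 9.96. Itga5, the fibronectin receptor chain, had 9.83, 10.32 and 10.58, the widest spread of the detected integrins. The leukocyte integrins Itgal, Itgam, Itgax and Itgb2 and the epithelial Itgb6 were at background, as were Itga2 and Itga6.

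Of 48 receptor tyrosine kinases, 29 were detected (60.4%, against 45.9% of all genes). Axl had 13.02, 12.91 and 12.96, so the receptor and its ligand Gas6 were detected in the same plates. Egfr was detected by all 5 probes, the brightest averaging 10.97 ± 0.04 (SD, n = 3), although 3 of the Egfr ligands were at background. Hbegf, another ligand, was detected at 7.82, 7.57 and 8.02. Met had 6.16, 5.58 and 6.04, and Kit, Kdr, Tek, Erbb3 and the neurotrophin receptors Ntrk2 and Ntrk3 were at background. The neurotrophin Bdnf, the ligand of Ntrk2, was detected at 9.66 ± 0.08. Of 47 cytokine and chemokine receptors, 24 were detected (51.1%), a share near that of all genes. Il11ra1 (11.55 ± 0.10), Osmr (10.60 ± 0.06) and the shared chain Il6st (10.36 ± 0.06) belong to the IL-6 family, of which Il11 (5.98 ± 0.08), Lif (6.66 ± 0.29), Clcf1 (6.88 ± 0.06) and Ctf1 (8.06 ± 0.05) were the detected ligands. Cxcr4 was at background beside the bright Cxcl12, and Ackr3, its scavenging receptor, was in between.

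Of 38 receptors of TGF-beta, BMP, Wnt, Hedgehog and Notch, 22 were detected (57.9%, against 45.9% of all genes). Tgfbr2 had 11.68, 11.65 and 11.69 and Tgfbr1 10.35, 10.27 and 10.29, the pair that receives TGF-beta. Fzd7, a Wnt receptor, had 10.20, 10.18 and 10.23. These values agree between plates within 0.08. Notch1, Notch2, Jag1 and Dll4 were at background, and Notch3 (5.77 ± 0.06, SD, n = 3) and Notch4 (6.32 ± 0.13) were detected low. Among adhesion molecules, Ncam1 had 10.14, 9.97 and 9.81 and Cdh3, P-cadherin, 9.55, 9.59 and 9.30 with all 4 probes detected. Cdh2, N-cadherin, was at background. Cdh11, the cadherin of fibroblasts, was detected by 2 of 3 probes, the brighter at only 5.78, 5.32 and 5.95. In antigen presentation, B2m, the light chain of MHC class I, had 12.68, 12.87 and 12.78. The heavy chains H2-D1 and H2-K1 had 10.32 ± 0.12 and 5.54 ± 0.14, and probes of these near-identical genes can share signal. Cd276, a checkpoint ligand known as B7-H3, had 9.17, 9.20 and 9.23, and Cd274, the PD-L1 gene, 6.16, 5.96 and 6.06. Cd86, Cd40 and Pdcd1lg2 were at background.

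Genes that every cell needs show how far a reading at background can be taken. Of 83 genes of basic machinery on the array, 72 were detected (86.7%, against 45.9% of all genes) and 9 were at background (10.8%). Those 9 were Pcna, Hspa5, Psma1, Psma3, Psma6, Psmc6, Polr2c, Cct5 and Cct7, among them subunits of the proteasome, of RNA polymerase II and of the chaperonin that folds actin and tubulin. At the other end, 2 of 1075 olfactory receptor genes (0.186%) and none of 173 vomeronasal receptor genes were detected, and 95.5% and 95.4% of them were at background. A probe at background therefore does not show that a transcript was absent, while genes silent outside the nose seldom passed the detection rule. Of genes with more than 1 probe 60.2% were detected, and of the 11166 genes with a single probe 33.8%. Whether the number of probes or the genes themselves set this difference was not tested. The shares of the lists were set against all genes without allowing for the number of probes.

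Genes of cell division were detected for the most part. Of 27 proliferation genes, 23 were detected (85.2%, against 45.9% of all genes), with a median level of 9.84. Ccnd1, a G1 cyclin, had 11.78, 11.72 and 11.66, Top2a, a topoisomerase of S and G2 phase, 10.21, 10.19 and 10.13, and Mki67, the Ki-67 antigen, 9.83, 9.77 and 9.92. The 3 plates agreed within 0.15 in each. Ccna2, Ccnb2, Bub1 and Pcna were at background. Among genes of the tumour model, Trp53 (8.71 ± 0.19, SD, n = 3) was detected, and Brca1, with raw intensities of 44.4, 38.4 and 41.2 on the brighter of 2 probes, and Pdx1 were at background. The probes do not tell mutant from normal alleles. Of the Y chromosome, Ddx3y (10.33, 10.44 and 10.34), Eif2s3y (7.33, 7.30 and 6.90) and Uty (5.58, 5.45 and 5.22) were detected and Kdm5d was in between, and Xist, the RNA of the inactive X chromosome, was at background on all 4 probes. Of 29 genes of meiosis and placenta that most body cells silence, 22 were at background and 4 were detected: the placental hormone gene Prl2c2 (8.37 ± 0.14), Psg23 (6.00 ± 0.05), the oocyte factor Gdf9 (5.55 ± 0.34) and the germ cell gene Piwil2 (5.43 ± 0.19). Prl2c2 and Psg23 have near-identical copies that may share their probes.

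The plates agreed closely for most genes. The median SD between plates was 0.109 over detected genes and its 90th percentile 0.213. The median standard error over the beads of 1 array was 0.062. That error was taken on raw intensities before background correction, so it is not on the same scale as the SD. The highest and lowest plates differed by more than 1.5-fold in 173 of 9474 genes (1.83%) and by more than 2-fold in 7. Plate 3 was the one farthest from the middle plate in 84 of the 173, plate 1 in 51 and plate 2 in 38. Among genes above the median level, the widest range belonged to Ap2a1, an adaptor of clathrin vesicles, with 8.22, 8.70 and 9.32. Pomgnt1, a glycosyltransferase of dystroglycan, had 8.17, 8.16 and 9.07, and Cald1, the actin-binding caldesmon, 9.21, 9.31 and 8.44. Plate 3 stood apart in both, high for one and low for the other. The selenoprotein gene Selenow had 9.91, 10.54 and 10.75, lowest on plate 1, and the helicase gene Ddx5 8.53, 7.88 and 8.67, lowest on plate 2. The ubiquitin-conjugating enzyme Ube2m (9.48, 9.49 and 10.27) was high on plate 3. Beside Itga5, the rest of the 20 widest genes were Tmem176a, Mtrex, Sdc4, B4galt1, Cux1, Selenop, Smim11, Tns1, Bst2, Ptms, Mustn1, Clspn and Calr, with ranges of 0.61 to 0.74. Calr, the calcium-binding chaperone calreticulin, was the brightest of them at 11.94, 11.76 and 12.37.

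**Figure D5:**
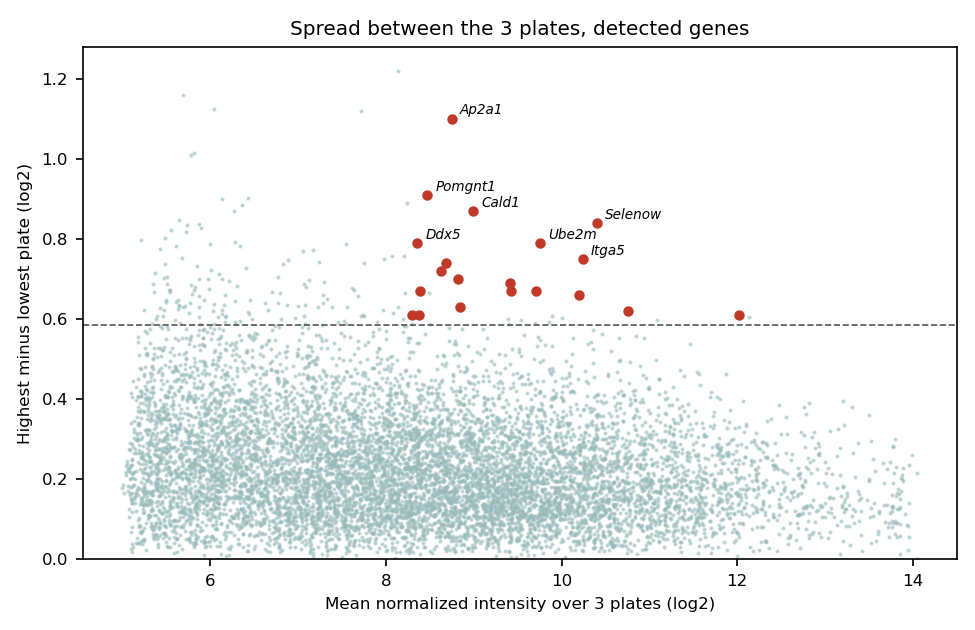
Range between the highest and lowest plate (log2) against mean normalized intensity (log2) for the detected genes, with the 20 widest above the median level in red (first 7 named) and a dashed line at 1.5-fold. Most genes lie far under the line, and Ap2a1 reaches 1.10.

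Detected genes and genes at background differed in the base composition around their start sites. RefSeq windows of 300 bases were at hand for 7491 detected genes (9661 windows) and 6889 genes at background (7932 windows). The median number of CpGs was 21 in windows of detected genes and 5 in those of genes at background, and the median ratio of observed to expected CpGs was 0.76 and 0.31. The ratio exceeded 0.6 in 71.1% of windows of detected genes and 27.0% of those at background, against 35.8% of all 32851 windows. Within the detected genes the share was 62.9%, 70.2%, 74.4% and 76.6% from the dimmest to the brightest of 4 equal groups by level. The letters TATAAA, searched on both strands, occurred in 6.9% of windows of detected genes and 17.7% of those at background, against 13.6% of all windows. Windows of 1 gene share sequence, so no test was made of these shares. The gene groups of the fibroblast did not all follow the detected genes. The ratio exceeded 0.6 in 87.7% of windows of the machinery list, 79.2% of proliferation genes and 65.8% of mesenchymal transcription factors, but in 19.2% of pan-fibroblast genes and 10.5% of inflammatory fibroblast genes. Acinar genes, nearly all at background, had 9.5%, and Wnt and Hedgehog genes, also mostly at background, 74.1%. A match is a description of letters in this window and shows neither methylation nor use of the site.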

How the data were processed

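Biotin-labelled cRNA from total RNA of 3 untreated plates was hybridised to Illumina bead arrays, per the labels. The deposited table held, per the file headers, mean bead intensity per probe on a linear scale, its bead standard error, the number of beads and a detection p-value. It was not normalized, as judged from its values. The scanner software was not given in the sources used here. Another deposited value table shared no probe identifiers with the first and was not used. Columns were assigned by the sample names in the labels.

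From these, levels were computed with limma 3.58.1 under R 4.3.3. The nec function estimated background from the detection p-values and removed it by normexp. After an offset of 16, quantile normalization over the 3 untreated arrays and the log2 transform gave the levels. Summaries used Python 3.11.15, pandas 2.3.3 and numpy 2.4.6. Probe names were updated through a RefSeq table of GRCm38.p6, used for names alone: 36674 of 45281 probes (81.0%) matched, 27760 by symbol, 7994 by synonym and 920 by gene identifier. The gene counts leave out 187 probes with an ambiguous name, 40 whose name had turned into a date and 8380 without a match.

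Named genes are the 5 markers, the 30 brightest genes, the 20 of widest range above the median level, and members of 49 gene lists. Members and lists were chosen with earlier results of these data known. From each list, up to 8 of the brightest detected members and the members at background could be named. The text gives a selection of these and further members by role, chosen after their values were seen. The number of arrays limits the precision. Some list members are not reported here. The detection rule and the levels were tested on simulated intensities. Alternatives were other detection thresholds and gene rules, other background, offset and normalization settings, and leaving out each plate.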

Additional observations from a re-analysis of the deposited data

How the results depend on the processing

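The count of detected genes rested on the rule that 1 detected probe is enough. When all probes of a gene had to be detected, 5838 genes passed in place of 9474, with 94 matrix genes in place of 145, 65 secreted genes in place of 103, 77 surface genes in place of 135 and 82 lineage genes in place of 122. That rule can only lower a count. Under a detection p of 0.05 and 0.001, the detected genes numbered 10068 and 8189, and with 2 of 3 arrays enough 9856. Without 1 plate in turn, 15987 to 16544 probes and 9518 to 9754 genes were detected, 9322 to 9555 genes were at background, and the lineage, matrix, secreted and surface counts were 123 to 126, 145 to 147, 103 to 109 and 136 to 137. Of the 30 brightest genes, 26 to 27 stayed without 1 plate, 29 to 30 under other background, offset, filter and normalization settings (normalization over all 6 arrays included), and 17 when the detected probes of a gene were averaged. The median SD between plates was 0.08 to 0.119 under the other settings, against 0.109, and 0.083 to 0.098 without 1 plate. An SD over 2 plates tends to be lower than one over 3, so the values without 1 plate are not directly comparable with 0.109. At a detection p of 0.001, 0 lymphocyte, 1 pericyte and 3 macrophage genes remained called, in place of 3, 4 and 7. The dim members of those lists thus depend on the threshold. The level of Col1a2 was 7.36 with an offset of 1 and 7.74 with an offset of 50, since an offset compresses dim probes. The other deposited table was not used as an alternative because its probes could not be named. No paired analysis was possible because no groups were compared. Groups of 3 plates were not tested for outliers.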

Other observations

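Zinc finger genes named Zfp, which encode DNA-binding proteins, were detected in 182 of 346 cases (52.6%, against 45.9% of all genes), but their median level was 6.90 against 8.26 and 1 of them lay above the 90th percentile of detected genes. Of 66 ribosomal protein genes, 59 were detected (89.4%), at a median level of 13.17. None of 39 keratin-associated protein genes of hair was detected. Claudins of tight junctions were detected in 5 of 27 cases, with Cldn15 at 9.12 ± 0.05 (SD, n = 3) and Cldn12 at 8.13 ± 0.12. Of 10 mucins, Muc16 was the only one detected on all 3 arrays.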
